A study of Homo sapiens with 12 samples.

Results

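The 10 genes followed here were listed as surface or matrix markers of monocytes and macrophages, though not all are particular to these cells. They are CD14, CD36, CD86, VCAN, FCGR2A, CD33, CD163, MSR1, SCARA5 and ADAM28. They were taken by symbol from a deposited table of raw read counts, so they are 10 of its 54628 gene rows. A filter on low counts left 9 of them for testing and removed MSR1. The cells were OCI-AML3, a cell line long established from human acute myeloid leukaemia, and their polyadenylated RNA gave 12 libraries, 3 for each of 4 treatments of 24 h. Cells of the Comb group received venetoclax together with an ERK inhibitor, cells of the ERKi group the ERK inhibitor alone, and cells of the ABT199 group venetoclax alone, while the DMSO group received the solvent. Venetoclax (ABT199 in the labels) blocks the survival protein BCL2, and ERK is the last kinase of the RAS-RAF-MEK cascade. The labels call the ERK inhibitor compound 27, and the sources used here give no dose of either drug. All 4 groups are the same single line, and nothing in the labels says that the 3 replicates of a group were separate cultures, so p-values measure the spread between these libraries, which may be technical.

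Monocytes and macrophages sense and clear their surroundings through such proteins. CD36, SCARA5, MSR1 and CD163 are scavenger receptors that take up modified lipoproteins, ferritin or haemoglobin-haptoglobin complexes. CD14 presents lipopolysaccharide to TLR4, FCGR2A binds the Fc part of IgG, CD33 is an inhibitory Siglec that binds sialic acids, and CD86 is the costimulatory ligand that T cells read through CD28 and CTLA4. Versican, the product of VCAN, is a large hyaluronan-binding proteoglycan that classical monocytes make in quantity, and ADAM28 is a membrane metalloprotease first known from lymphocytes. CD33 is widely used as a surface antigen of acute myeloid leukaemia, whereas CD14 marks mature monocytes.

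Promoter sequences of 3 members are given because their transcripts took different courses: CD86 and VCAN rose with the ERK inhibitor, and CD14 did not. Each runs from 250 bases before to 50 bases after a transcript start listed by RefSeq (GRCh38.p14) and reads 5′ to 3′ on the gene's strand. Capitals mark matches, on either strand, to an AP-1 motif (TGANTCA) or a PU.1 motif (GAGGAAG).
CD86, chr3:122055112-122055411, plus strand: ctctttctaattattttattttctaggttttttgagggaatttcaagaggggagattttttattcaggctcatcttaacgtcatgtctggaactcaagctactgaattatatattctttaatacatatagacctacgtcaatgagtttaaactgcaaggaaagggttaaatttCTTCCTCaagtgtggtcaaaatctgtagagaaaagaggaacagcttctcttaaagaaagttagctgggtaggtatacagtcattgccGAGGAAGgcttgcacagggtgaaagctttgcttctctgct
VCAN, chr5:83471494-83471793, plus strand: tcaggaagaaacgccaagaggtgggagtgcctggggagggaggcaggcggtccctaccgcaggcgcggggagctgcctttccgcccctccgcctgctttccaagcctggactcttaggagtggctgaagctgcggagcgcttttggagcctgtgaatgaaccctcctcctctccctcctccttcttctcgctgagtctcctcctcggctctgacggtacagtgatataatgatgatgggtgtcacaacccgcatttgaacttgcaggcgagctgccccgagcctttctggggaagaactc
CD14, chr5:140633126-140633425, minus strand: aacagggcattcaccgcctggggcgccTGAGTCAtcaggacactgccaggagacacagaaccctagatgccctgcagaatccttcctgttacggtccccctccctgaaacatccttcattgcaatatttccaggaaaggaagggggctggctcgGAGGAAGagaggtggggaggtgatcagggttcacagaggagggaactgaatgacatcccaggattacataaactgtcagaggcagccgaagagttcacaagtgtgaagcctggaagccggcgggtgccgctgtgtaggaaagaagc
The printed CD86 window held 2 PU.1 matches, starting at positions -77 and 11 from the transcript start, and the CD14 window held 1 AP-1 match at -223 and 1 PU.1 match at -96. Another CD86 window, chr3:122077534-122077833, is not printed and held 0 PU.1, 0 AP-1 and 0 C/EBP matches. No AP-1 or PU.1 match lay in the VCAN window. Windows were taken for 7 of the 10 members, 13 windows of 300 bases. MSR1, SCARA5 and ADAM28 were left out by the selection made here, so the counts below do not cover them. The shares over all promoters were not limited in this way. PU.1 matches lay in 4 of the 13 windows, each of a different member (CD86, CD14, CD33 and FCGR2A), against 13.6% of 35116 promoters in the whole table, and AP-1 matches in 2 of the 13 (CD14 and CD36), against 7.71%. A C/EBP motif (TTNCNNAA) was matched in 6 of the 13 windows (36.8% of all promoters), and in CD86 at -76 it overlapped the PU.1 match at -77. An ETS motif (CCGGAAG) was matched in 0 of the 13 (10.3% of all promoters). Of the members with a PU.1 match, CD86 and CD33 were called higher in ERKi than in DMSO and FCGR2A lower. CD14 was also called lower, but that call was not stable, as given below. The part of these matches in any change was not tested.

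Library totals ran from 19199296 to 21275065 counts, and 15173 genes were tested with edgeR's quasi-likelihood test across all 12 libraries. DMSO replicate 1 was unlike its own group: chi-square over degrees of freedom was 17.93 and 16.91 for its pairs with the other DMSO libraries and 2.34 to 5.52 for every other pair of replicates. ERK output was low wherever the ERK inhibitor was present: DUSP6, a phosphatase induced by ERK, averaged 1.27 CPM (counts scaled to a library total of 1e+06) in Comb, 2.24 in ERKi, 15.8 in ABT199 and 14.7 in DMSO. ETV4 (log2 fold change -5.14) and SPRY4 (-1.11) also fell in ERKi against DMSO, as did 12 of 12 measured ERK output genes (35.2% of all tested genes fell). Unlike the DUSP6 mean, most of these 12 were not lower in Comb than in ERKi. In that comparison 7 were higher (26.5% of all tested genes were) and 3 lower (24.3%), with a median log2 fold change of 0.29. A list of 10 general myeloid and NPM1-mutant programme genes stood for the leukaemia. Of these 9 were tested, of which 8 rose (34.5% of all genes did) and 1 fell (35.2%) in ERKi against DMSO (median log2 fold change 0.70). The myeloid transcription factor SPI1 averaged 286.3 CPM in Comb, 235 in ERKi, 127.4 in ABT199 and 141.9 in DMSO, while NPM1 was at 1204 CPM in Comb, 1282 in ERKi, 1956 in ABT199 and 1882 in DMSO. Lists for T and NK, B, erythroid, megakaryocytic, endothelial and epithelial cells each summed to at most 2.71 CPM in any library.

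The members differed widely in level. Per kilobase of exon, which allows genes to be compared, ERKi cells held 83.3 CPM per kb of VCAN, 32.5 of CD36, 27.2 of CD86, 12.9 of CD33 and 9.53 of FCGR2A. SCARA5 followed with 6.69 CPM per kb, ADAM28 with 3.94, CD163 with 0.482 and CD14 with 0.165. In DMSO cells the order was different: FCGR2A came first with 11.9 CPM per kb, ahead of CD33 (10.4), CD36 (10.2), VCAN (7.67) and CD86 (2.95). CD163 (0.42), CD14 (0.38), ADAM28 (0.154) and SCARA5 (0.0785) came last there. In CPM, which is not scaled for exon length, VCAN had rank 62 of 15173 in ERKi and rank 86 in Comb, against rank 2133 in ABT199 and rank 2063 in DMSO. CD14 stayed near the bottom of the tested genes, at rank 14775 in Comb, 14859 in ERKi, 13481 in ABT199 and 13147 in DMSO.

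**Figure D1:**
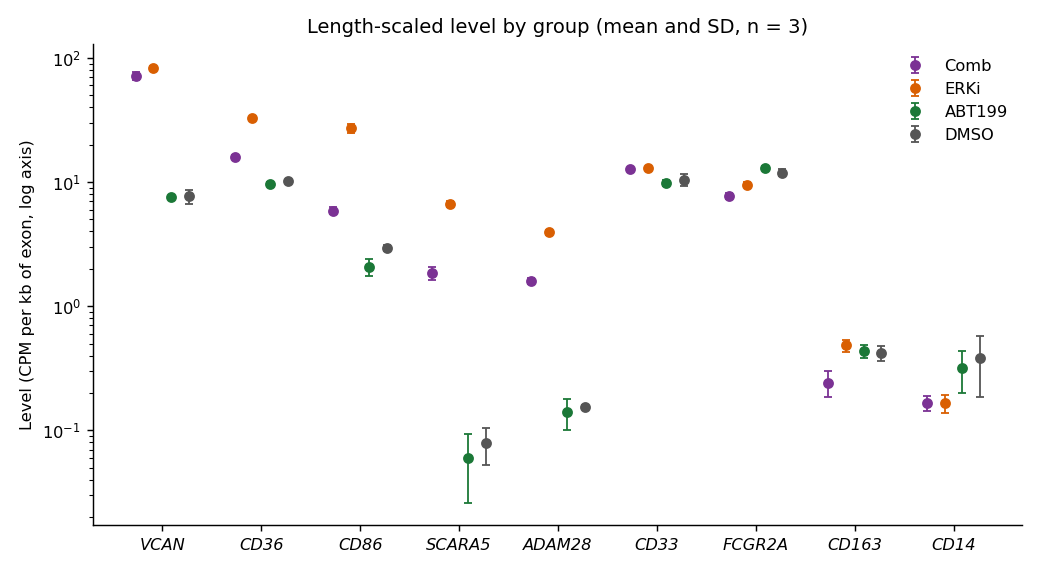
Level of each tested gene in CPM per kilobase of exon (log axis), as group mean and SD over 3 libraries. VCAN reached 71.5 in Comb and 83.3 in ERKi, whereas CD163 reached at most 0.482 and CD14 at most 0.38 in any group.

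With the ERK inhibitor alone, 6 of the 9 tested members were higher than in DMSO (34.5% of all tested genes were) and 2 were lower (35.2%), while CD163 was not called at an adjusted p under 0.05. With both drugs 6 were higher (30.4% of all genes) and 3 lower (33.4%). Both drugs against venetoclax alone gave 6 higher (32.1%) and 2 lower (34.2%), and the ERK inhibitor against venetoclax gave 6 higher (35.2%) and 1 lower (35.4%). At least 2-fold rises were seen for 5 members in ERKi (13.7% of all genes) and for 3 in Comb (10.1%). The median log2 fold change of the 9 was 1.68 in ERKi and 0.65 in Comb, beside 0.01 and -0.01 for all tested genes. SCARA5 passed the filter on low counts through its Comb and ERKi libraries alone and CD14 through its ABT199 and DMSO libraries alone, so a difference between groups was built into their passing. The counts and medians above include both genes. For the gene lists counted in this report, the same shares of all genes apply. The comparisons with DMSO share the 3 DMSO libraries. Without DMSO replicate 1 every called member except CD14 kept its call and direction in Comb and ERKi, and the CD33 rise was 0.39 in ERKi and 0.37 in Comb.

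**Figure D2:**
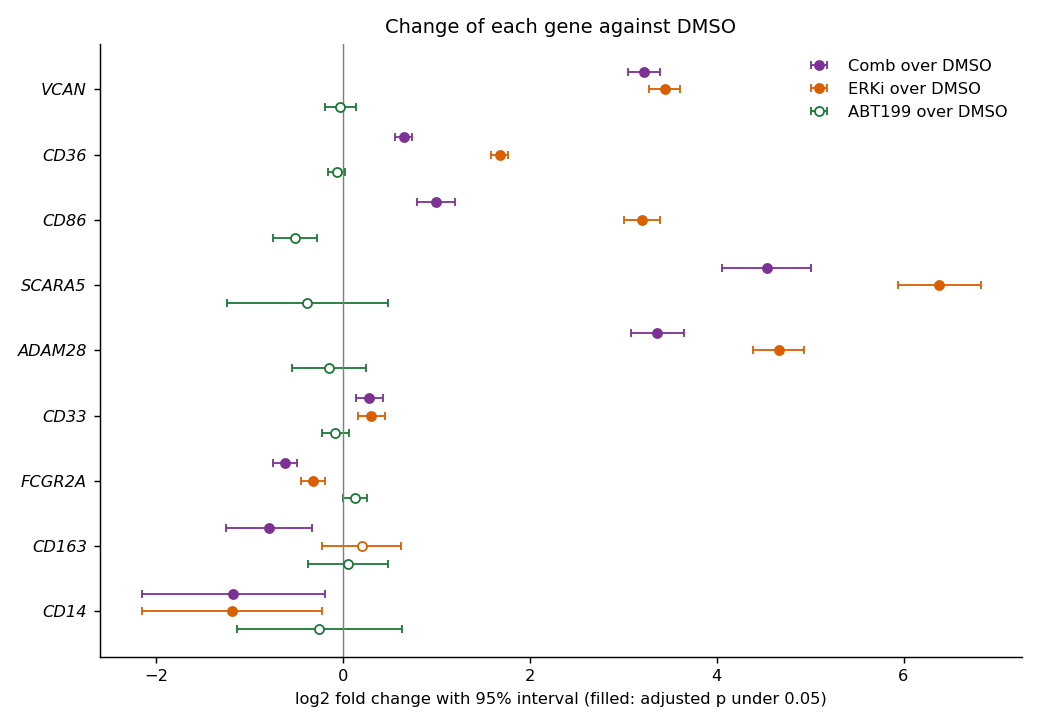
Log2 fold change of each tested gene in Comb, ERKi and ABT199 against DMSO, with 95% intervals; filled points have an adjusted p under 0.05. Rises in ERKi ran from 0.30 for CD33 to 6.39 for SCARA5, and no ABT199 point is filled.

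Among the scavenger receptors, CD36 and SCARA5 rose with the ERK inhibitor and CD163 and MSR1 did not. CD36, a receptor for oxidised lipoproteins and long-chain fatty acids on chromosome 7 (80602207 to 80679274; this and later gene positions are from RefSeq on GRCh38.p14), had 167.4, 178.7 and 173.7 CPM in Comb, 356.5, 358.5 and 345.3 CPM in ERKi, 108.7, 103.8 and 103.9 CPM in ABT199, and 108.7, 112.3 and 110.6 CPM in DMSO. All ERKi libraries lay above all Comb libraries, and these above the ABT199 and DMSO libraries, which overlapped. The log2 fold change against DMSO was 1.68 in ERKi (SE 0.0431, adjusted p = 7.33e-15) and 0.65 in Comb (SE 0.0429, adjusted p = 1.13e-09). In bulk RNA, more transcripts per cell and more cells that carry them cannot be told apart, here or below.

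SCARA5, a ferritin receptor, was close to absent without the ERK inhibitor. It had 173, 131 and 168 counts in Comb, 625, 681 and 601 counts in ERKi, 6, 2 and 8 counts in ABT199, and 5, 10 and 7 counts in DMSO. Those are means of 8.22 ± 0.972 CPM in Comb, 29.7 ± 1.73 CPM in ERKi, 0.265 ± 0.15 CPM in ABT199 and 0.348 ± 0.116 CPM in DMSO (SD, n = 3 each). Every ERKi library exceeded every Comb library, and both groups stood clear of the others. Its log2 fold change of 6.39 in ERKi (SE 0.207, adjusted p = 9.63e-14) ranked 6 of 15173 genes from the top, and that in Comb was 4.53 (SE 0.224, adjusted p = 3.03e-11, rank 28). SCARA5 passed the filter on low counts through Comb and ERKi libraries alone, so a rise was built into its being tested.

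CD163, the haemoglobin scavenger receptor of macrophages (chromosome 12, 7470811 to 7503777), stayed low. The libraries held 31, 19 and 31 counts in Comb, 64, 63 and 53 counts in ERKi, 48, 46 and 58 counts in ABT199, and 47, 60 and 47 counts in DMSO. Comb libraries lay below all others, which overlapped. In ERKi the log2 fold change was 0.20, with a 95% interval of -0.22 to 0.62 (adjusted p = 0.388), and in Comb it was -0.79 (SE 0.216, adjusted p = 0.0044). CD163L1, which shares 0.654% of the CD163 exons, had 262 to 457 counts per library. MSR1, the class A macrophage scavenger receptor, had 1 count in Comb replicate 1, 1 count in ABT199 replicate 2 and 0 counts in the other 10 libraries. A count of 0 allows up to 3 counts, or 0.139 to 0.162 CPM depending on the library, so MSR1 was not detectable above that in 10 of 12.

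Elsewhere in the scavenger receptor family there was no common direction: of 11 tested genes 4 rose and 4 fell in ERKi (median log2 fold change 0.35, beside 0.01 for all genes). SCARA3, 1 of those that fell, reached the cutoff of the filter in ABT199 and DMSO libraries alone. CD68, a lysosomal glycoprotein of macrophages, averaged 341.4 ± 11.2 CPM in Comb and 322.1 ± 9.39 CPM in ERKi, against 160.5 ± 22.8 CPM in DMSO (SD, n = 3), log2 fold changes of 1.09 in Comb and 1.01 in ERKi. LRP1 (0.91), SCARF2 (1.66) and the lysosomal relative of CD36, SCARB2 (0.35), were called higher in ERKi as well. SCARB1, the HDL receptor and the other relative of CD36, fell to 44.1 ± 0.66 CPM in ERKi, against 103 ± 8.61 CPM in DMSO (log2 fold change -1.23), and MEGF10, an engulfment receptor, was at -0.91 in ERKi and -3.02 in Comb.

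CD14, the lipopolysaccharide co-receptor on chromosome 5 (140631732 to 140633701), had 7, 5 and 6 counts in Comb, 6, 6 and 8 counts in ERKi, 13, 7 and 16 counts in ABT199, and 23, 14 and 8 counts in DMSO. DMSO replicate 1 held the most, and CD14 passed the filter on low counts through ABT199 and DMSO libraries alone. In CPM the Comb and ERKi libraries lay below all DMSO libraries, but the margin was narrow, with 0.373 CPM in ERKi replicate 3 and 0.379 CPM in DMSO replicate 3. The log2 fold change was -1.18 in ERKi (SE 0.455, adjusted p = 0.0288) and -1.17 in Comb (SE 0.464, adjusted p = 0.0364). Those calls were not stable: without DMSO replicate 1 the values were -0.74 (adjusted p = 0.208) in ERKi and -0.72 (adjusted p = 0.232) in Comb, and neither was called by DESeq2 or limma-voom. With edgeR the ERKi call was also lost without ERKi replicate 1 (adjusted p = 0.0725) or ERKi replicate 2 (0.0756). The Comb call was also lost with no filter (0.0595), without DMSO replicate 2 (0.0545) and without any single Comb replicate (0.0614 to 0.0956).

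Toll-like receptors, co-receptors and adaptors listed around CD14 rose with the ERK inhibitor. They are called partners here, though the list also takes in CD180 and LY86, which pair with each other. Of 10 tested partners, 10 rose in ERKi (median log2 fold change 1.17, beside 0.01 for all genes) and 9 rose in Comb (median 0.62, beside -0.01). TLR4, the signalling receptor, averaged 92.2 ± 2.27 CPM in Comb, 150.5 ± 0.927 CPM in ERKi, 55.3 ± 2.24 CPM in ABT199 and 54.1 ± 5.33 CPM in DMSO (SD, n = 3). LY86, which pairs with the TLR4 relative CD180, rose by a log2 fold change of 2.46 in ERKi and 2.50 in Comb. TLR1 (2.16), CD180 (1.25), TLR2 (0.69) and TICAM1 (0.56) rose in ERKi too. TLR6 was the partner not called in Comb (-0.02, adjusted p = 0.958). LY96 reached the cutoff of the filter in Comb and ERKi libraries alone, so its rise was built into its passing, and without it 9 of 9 rose in ERKi and 8 of 9 in Comb.

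**Figure D3:**
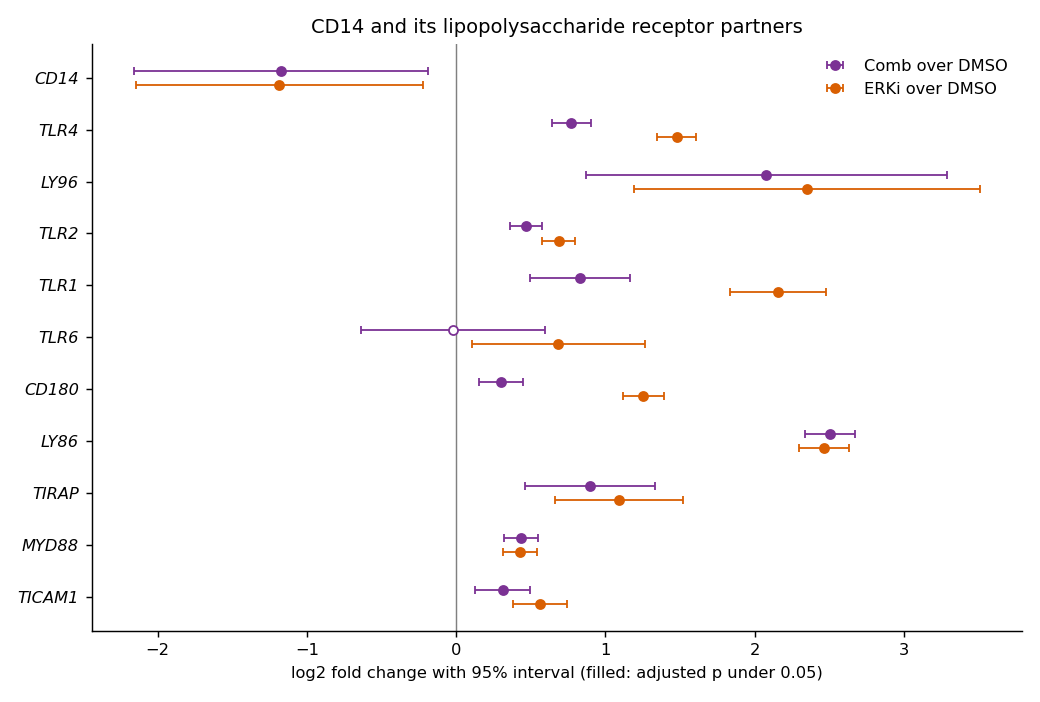
Log2 fold change of CD14 and of the 10 tested genes listed as its partners in Comb and ERKi against DMSO, with 95% intervals. Filled points have an adjusted p under 0.05. CD14 lies at -1.17 in Comb and -1.18 in ERKi, whereas every partner in ERKi lies above 0.

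Of the immunoglobulin-like receptors and ligands, CD86 rose strongly, CD33 slightly, and FCGR2A fell. CD86, on chromosome 3 (122055362 to 122121136), had 20.95, 18.74 and 20.95 CPM in Comb, 88.21, 102.3 and 89.42 CPM in ERKi, 6.239, 8.317 and 6.707 CPM in ABT199, and 9.471, 10.6 and 10.29 CPM in DMSO. No group overlapped another, with ERKi highest, then Comb, DMSO and ABT199. The log2 fold change against DMSO was 3.20 in ERKi (SE 0.0907, adjusted p = 2.09e-14) and 0.998 in Comb (SE 0.0969, adjusted p = 1.28e-07). The CD86 window printed above held 2 PU.1 matches, and another CD86 window, at a different transcript start, held 0. Other ligands of this kind were mixed, with 4 of 10 tested higher and 4 lower in ERKi (median 0.35). CD70 (1.27), VSIR (1.05), ICOSLG (0.95) and TNFSF9 (0.63) were the 4 that rose, CD83, a marker of mature dendritic cells, was at -1.63, and LGALS9 (0.07, adjusted p = 0.477) was not called in ERKi. CD80, the other CD28 ligand, did not pass the filter on low counts, with group means of at most 0.0505 CPM.

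CD33, on chromosome 19 (51211076 to 51240016), had 74.09, 77.62 and 75.96 CPM in Comb, 77.74, 75.84 and 77.55 CPM in ERKi, 56.3, 63.09 and 57.06 CPM in ABT199, and 70.31, 57.83 and 59.04 CPM in DMSO. The Comb and ERKi libraries overlapped each other and lay above all ABT199 and DMSO libraries, of which DMSO replicate 1 was the highest. The rise was small, at a log2 fold change of 0.30 in ERKi (SE 0.0675, adjusted p = 0.000725) and 0.28 in Comb (SE 0.0678, adjusted p = 0.00165). Of 6 other Siglecs tested, 3 rose and 1 fell in ERKi (median 0.34), and 0 rose and 4 fell in Comb (median -0.82). SIGLEC7 had 11.6 ± 0.536 CPM in Comb, 22 ± 1.83 CPM in ERKi and 18.7 ± 1.71 CPM in DMSO, log2 fold changes of -0.70 in Comb and 0.24 in ERKi. SIGLEC14 (1.35) and SIGLEC5 (1.48) were the other Siglecs that rose in ERKi, both with DMSO means under 1 CPM, and SIGLEC1, the sialoadhesin of macrophages, was at -1.84. SIGLEC5 reached the cutoff of the filter in ERKi libraries alone, and without it 2 of 5 rose and 1 fell. SIGLEC9 was not called in ERKi (0.45, adjusted p = 0.165).

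FCGR2A, the activating low-affinity IgG receptor on chromosome 1 (161505457 to 161524048), had 41.19, 38.4 and 43.48 CPM in Comb, 48.13, 52.56 and 51.23 CPM in ERKi, 69.03, 70.85 and 66.88 CPM in ABT199, and 67.94, 60.99 and 60.32 CPM in DMSO. Comb lay below ERKi, and ERKi below the ABT199 and DMSO libraries, which overlapped. The log2 fold change was -0.32 in ERKi (SE 0.0605, adjusted p = 0.000188) and -0.62 in Comb (SE 0.0619, adjusted p = 1.78e-07). Of the 50-base windows in FCGR2A transcripts, 16.7% also occur in other genes and 14.9% in FCGR2C, so reads could be assigned to either or dropped by the authors' counting. These paralogs were called higher in ERKi: FCGR2C averaged 2.46 CPM in Comb, 3.96 in ERKi, 0.684 in ABT199 and 0.811 in DMSO (log2 fold change 2.28 in ERKi), and FCGR2B, the inhibitory receptor, 1.75 in Comb, 2.78 in ERKi, 0.714 in ABT199 and 1.41 in DMSO (0.97 in ERKi). In Comb FCGR2C was called higher as well (1.60), and FCGR2B was not (0.30, adjusted p = 0.362). Their values carry the same uncertainty. Of 5 other Fc receptor genes tested, 4 rose and 1 fell in ERKi (median 0.59). The faller was FCGR1A, the high-affinity IgG receptor, with 10.3 ± 0.719 CPM in Comb, 5.4 ± 0.212 CPM in ERKi and 21.1 ± 2.36 CPM in DMSO. FCGRT, the neonatal Fc receptor, rose by 0.59 in ERKi and 0.99 in Comb, and FCER1G, the shared signalling chain, by 0.36 in ERKi, while it was at -0.35 in Comb.

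By mean CPM, VCAN was the highest of the 10 genes in every group. The lead over CD36 was narrow in ABT199 (111.5 against 105.5 CPM) and DMSO (113.7 against 110.5 CPM). Per kilobase of exon, VCAN was the highest in Comb and ERKi alone. This gene on chromosome 5 (83471744 to 83582302) had 1150, 990.8 and 1040 CPM in Comb, 1262, 1186 and 1259 CPM in ERKi, 113.2, 109.3 and 112 CPM in ABT199, and 96.69, 118.7 and 125.7 CPM in DMSO. Comb and ERKi did not overlap, and both lay far above ABT199 and DMSO, which did. The fold was 9.32 in Comb and 10.9 in ERKi, or log2 fold changes of 3.22 in Comb (SE 0.0791, adjusted p = 8.8e-15) and 3.44 in ERKi (SE 0.0798, adjusted p = 3.2e-15). VCAN-AS1, which overlaps 3.05% of the VCAN exons on the other strand, had 0 to 50 counts per library, against at least 2001 for VCAN. All 5 tested genes of the versican and hyaluronan list rose in ERKi (median 0.94): the versican-cleaving proteases ADAMTS5 (2.09) and ADAMTS1 (0.74), the hyaluronan receptor CD44 (0.36) and the hyaluronan synthase HAS3 (1.35) were among them. In Comb 4 of the 5 rose, and CD44 was at -0.01 (adjusted p = 0.846). The other 13 listed genes did not pass the filter.

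ADAM28 had 310, 256 and 291 counts in Comb, 816, 764 and 784 counts in ERKi, 23, 34 and 21 counts in ABT199, and 31, 30 and 30 counts in DMSO. The order of groups was that of SCARA5, with ERKi above Comb and both clear of ABT199 and DMSO, which overlapped. Its log2 fold change was 4.67 in ERKi (SE 0.128, adjusted p = 1.51e-14, rank 33 of 15173) and 3.37 in Comb (SE 0.134, adjusted p = 2.08e-12, rank 83). Other ADAM genes and their inhibitor TIMP3 showed no shared direction, with 3 of 8 tested higher and 3 lower in ERKi (median 0.27), of which ADAMDEC1 reached the cutoff of the filter in Comb and ERKi libraries alone. TIMP3 fell to 127.5 ± 5.47 CPM in Comb and 335.2 ± 5.4 CPM in ERKi, against 1189 ± 11.7 CPM in DMSO (SD, n = 3). The sheddases ADAM10 (0.28) and ADAM17 (0.44) rose in ERKi, while ADAM15 (-1.09) and ADAM9 (-0.33) fell.

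**Figure D4:**
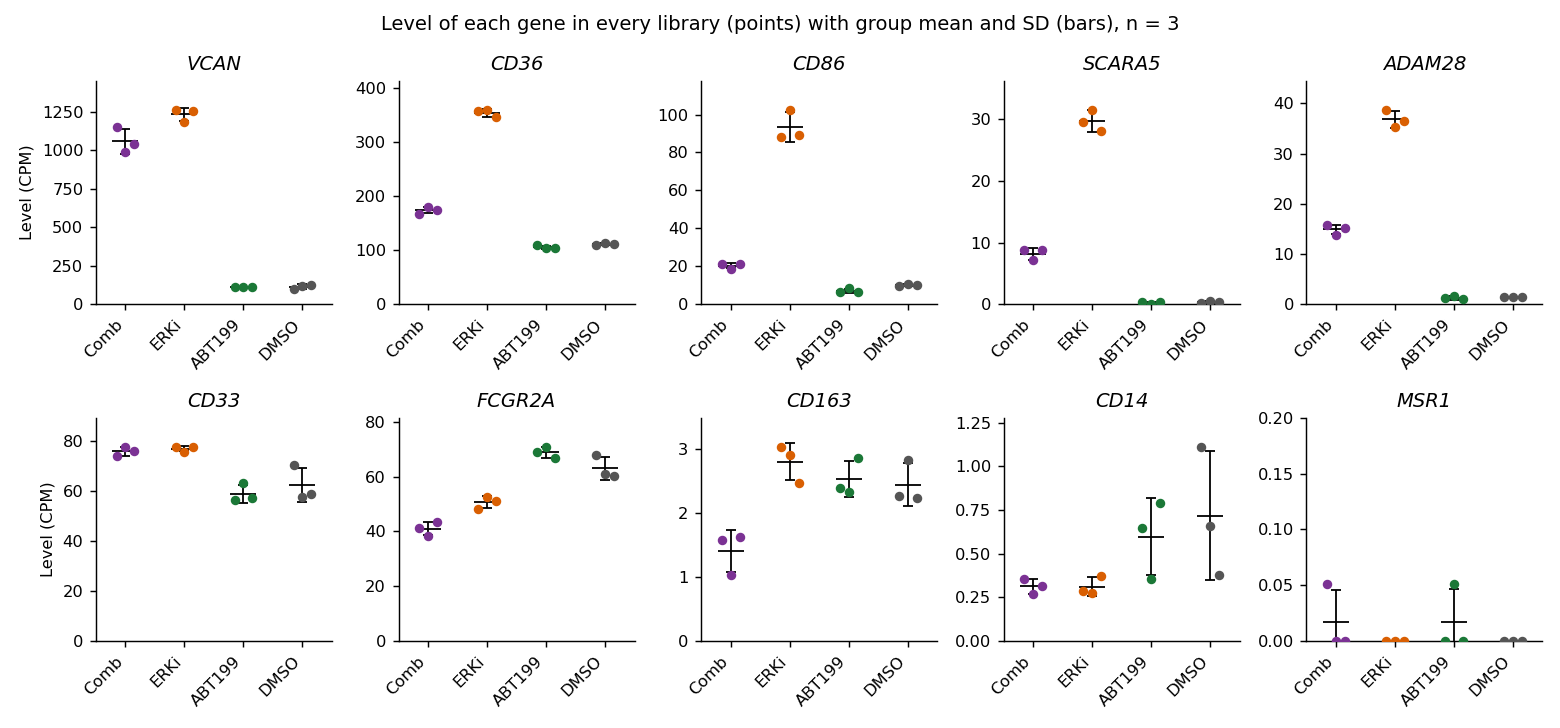
CPM of each gene in every library (points), with group mean and SD (bars, n = 3), on a linear axis of its own that starts at 0. VCAN, CD36, CD86, SCARA5 and ADAM28 are highest in the 3 ERKi libraries, FCGR2A is lowest in the 3 Comb libraries, and CD14 reaches at most 1.11 CPM.

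Adding venetoclax to the ERK inhibitor lowered most of these transcripts. Against ERKi alone, 0 of the 9 tested members were higher in Comb (26.5% of all genes were) and 7 were lower (24.3%), and 4 were at least 2-fold lower (4.19%). At an unadjusted p under 0.05, and by DESeq2, the number higher was also 0. CD86 was 4.61-fold lower (log2 fold change -2.21, SE 0.0845, adjusted p = 1.84e-11), SCARA5 3.61-fold (-1.85, SE 0.137, adjusted p = 2.12e-08), ADAM28 2.46-fold (-1.30, SE 0.0971, adjusted p = 2.33e-08) and CD36 2.04-fold (-1.03, SE 0.0421, adjusted p = 4.36e-11). CD163 was at -0.99 (adjusted p = 0.00108) and FCGR2A at -0.30 (adjusted p = 0.000717). VCAN moved least of the 7, at -0.22 (adjusted p = 0.0162), and lost its call without ERKi replicate 1 (adjusted p = 0.0567), ERKi replicate 3 (0.0543) or Comb replicate 2 (0.0685). For CD33 the difference was -0.02, with a 95% interval of -0.16 to 0.12, and for CD14 it was 0.01, with an interval of -1.10 to 1.12.

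Venetoclax alone changed none of them past the threshold. Against DMSO, 0 of 9 members were called by edgeR or limma-voom (edgeR called 0.402% of all genes, and 0.382% as lower), 1 was called lower by DESeq2, and 2 had an unadjusted p under 0.05 (9.11% of all genes). CD86 was the lower of those 2, at -0.52 (SE 0.11, adjusted p = 0.0577), with 3 ABT199 libraries below all 3 DMSO libraries. DESeq2 called it (adjusted p = 0.00616), and so did edgeR without DMSO replicate 1 (0.0291), ABT199 replicate 2 (0.0167) or ERKi replicate 2 (0.0477). The other was FCGR2A at 0.13 (adjusted p = 0.546).

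Whether venetoclax acted differently with and without the ERK inhibitor was tested as the interaction, the log2 difference of Comb and ERKi minus that of ABT199 and DMSO. It was called below 0 for 6 of 9 members (18% of all genes) and called above 0 for 0 (21.3%; also 0 at an unadjusted p under 0.05 and by DESeq2). The values were -1.69 for CD86 (95% interval -1.99 to -1.40, adjusted p = 3.15e-07), -1.15 for ADAM28 (adjusted p = 0.000515), -0.96 for CD36 (adjusted p = 2.53e-08), -1.04 for CD163 (adjusted p = 0.0105) and -0.43 for FCGR2A (adjusted p = 0.000985). SCARA5 was at -1.47 (adjusted p = 0.0172), a call lost without ABT199 replicate 1 (0.0671) or ABT199 replicate 3 (0.194) and by limma-voom (0.0637). VCAN at -0.19 (95% interval -0.42 to 0.03), CD33 at 0.06 (-0.14 to 0.27) and CD14 at 0.27 (-1.16 to 1.69) were not called, though VCAN was without DMSO replicate 3 (adjusted p = 0.0437) and under scaling by total counts (-0.30, adjusted p = 0.0444). Scaling by total counts instead of TMM moved the median log2 fold change of all genes in Comb against ERKi to -0.13. It called 2763 genes higher and 5181 lower in that comparison, where TMM gave 4023 and 3694, and it called the interaction above 0 for 2334 genes and below 0 for 3765, where TMM gave 3227 and 2724. The 7 members that were lower in Comb than in ERKi stayed lower under it.

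**Figure D5:**
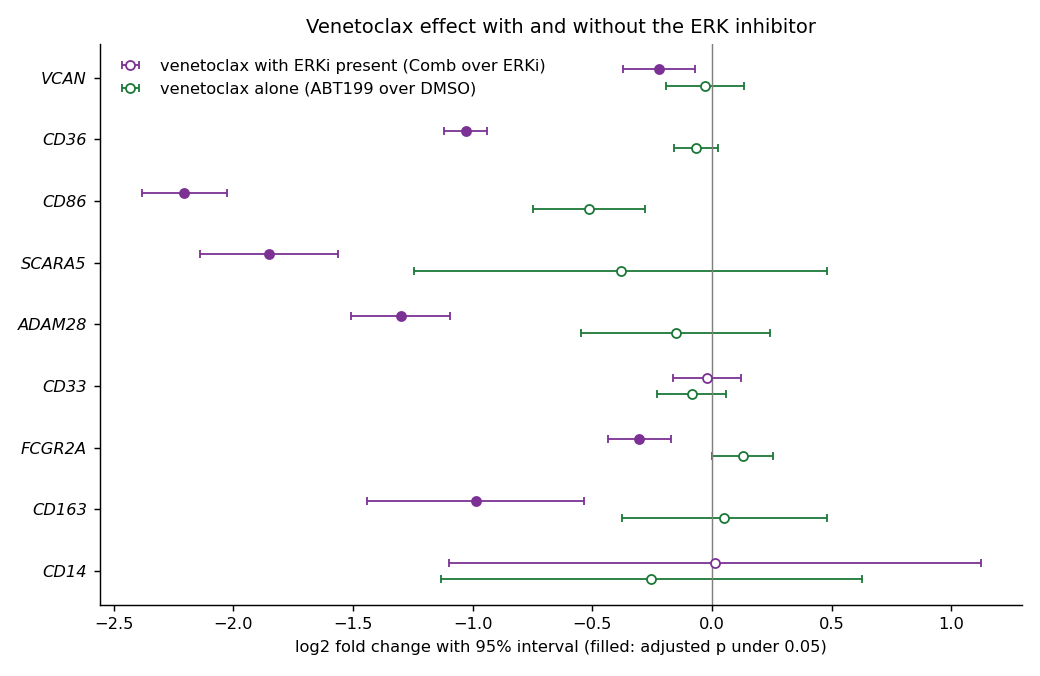
Log2 fold change of venetoclax with the ERK inhibitor present (Comb over ERKi) and alone (ABT199 over DMSO), with 95% intervals; filled points have an adjusted p under 0.05. CD86, SCARA5, ADAM28 and CD36 lie at or below -1.03 with the ERK inhibitor present, and CD33 lies near 0 in both.

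Other transcripts moved with the fall in Comb. Markers of dendritic cells summed to 2.6 to 2.94 CPM in Comb, 4.88 to 5.54 CPM in ERKi, 4.84 to 6.71 CPM in ABT199 and 5.32 to 6.73 CPM in DMSO, with 2 of 6 tested and both lower in Comb than in ERKi. The 6 fibroblast markers summed to 1.57 to 1.97 CPM in Comb, 10.2 to 24.6 CPM in ERKi, 12.9 to 23.7 CPM in ABT199 and 6.19 to 34.4 CPM in DMSO. COL1A2 had the highest mean of them in each group. Granulocyte genes ran the other way between Comb and ERKi, where 6 of 7 tested were higher in Comb (26.5% of all genes were). In ERKi against DMSO they were mixed, where 4 rose (34.5%) and 2 fell (35.2%). Their sum was 3980 to 4110 CPM in Comb, 3020 to 3140 CPM in ERKi, 1480 to 1520 CPM in ABT199 and 1450 to 1820 CPM in DMSO, and most of it was CTSG, the protease cathepsin G, with means of 3611 CPM in Comb, 2769 in ERKi, 1349 in ABT199 and 1410 in DMSO. The part of any of these in the results above was not tested.

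A wider list of 24 tested monocyte and macrophage surface genes shows how the members compare with their kind. One of them, ADGRE1, reached the cutoff of the filter in Comb and ERKi libraries alone. In ERKi 20 rose (34.5% of all genes did) and 2 fell (35.2%), with a median of 1.28. In Comb 19 rose (30.4%) and 2 fell (33.4%), with a median of 1.09. Between Comb and ERKi 5 were higher (26.5%) and 7 lower (24.3%), close to those shares (median 0.04, beside 0 for all genes). CSF1R, the receptor for the macrophage growth factor CSF1, had 63.1 ± 2.78 CPM in Comb, 82 ± 3.12 CPM in ERKi, 6.83 ± 0.734 CPM in ABT199 and 8.03 ± 1.57 CPM in DMSO (SD, n = 3). MS4A6A (2.89), ANPEP (1.73), CX3CR1 (1.56), MERTK (2.77) and CD93 (0.67) rose in ERKi as well. Lower means in ERKi than in DMSO included those of TREM2 (1.85 against 4.89 CPM) and TREM1 (0.297 against 1.48 CPM). Between Comb and ERKi, the engulfment receptor MERTK (-1.69) and the fractalkine receptor CX3CR1 (-1.69) were lower in Comb, beside -1.85 for SCARA5, whereas MS4A6A (0.33) and CD93 (0.50) were higher in Comb.

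The genes whose course over the 12 libraries was closest to each member were sought among 9660 protein-coding genes. The measure was the root mean square difference of centred log2 CPM, with 0.5 added to each CPM before the log. For CD36 the closest were MOB3B (0.0877) and ABCC4 (0.0933), for CD33 ITGA5 (0.0523) and ADD1 (0.0537), and for FCGR2A ZNF92 (0.0689) and PPIL4 (0.0753). CD86 was nearest to CADM1 (0.181), with 8.55 CPM in Comb, 31.5 in ERKi, 2.7 in ABT199 and 3.94 in DMSO, and next to CNR1 (0.268). VCAN was nearest to NHSL2 (0.18) and ANXA1 (0.188), and CD163 to HOXB8 (0.135) and SLA (0.143). ADAM28 was nearest to PILRA (0.277) and FUCA1 (0.291), and CD14 to CDK5 (0.145) and ARHGEF25 (0.149). The added 0.5 shrinks the changes of genes with low levels, such as CD14 and SCARA5, so their nearest genes need not change by as much. The loosest match was that of SCARA5, with S100A8 at 0.328 and GUCY2D at 0.484. S100A8, a calcium-binding protein of monocytes and neutrophils, averaged 35.8 CPM in Comb, 85.4 in ERKi, 2.2 in ABT199 and 3.28 in DMSO.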

How the data were processed

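The deposited table holds raw read counts per gene symbol, and each of its 12 columns was matched to a sample by title. The submitters' processing notes name HISAT2, HTSeq, DESeq2 and the build hg38. Tool versions, annotation release and strand setting were not given in the sources used here, and reads may be shared between overlapping, antisense or near-identical genes. Members and gene lists were chosen with earlier results of these data known, so counts of members called are descriptions and no list was tested as a set.

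The analysis used edgeR 4.0.16 (R 4.3.3). After filterByExpr with a minimum count of 10 and a minimum total of 15, 15173 genes remained, and TMM factors, which take most genes as unchanged, scaled the libraries. A single model of the 4 group means covered the 12 libraries (8 residual degrees of freedom, common biological coefficient of variation 0.0727), with quasi-likelihood F tests and Benjamini-Hochberg adjustment over all tested genes. Calls are at an adjusted p under 0.05. CPM is the count over the scaled library size, and levels per kilobase use GENCODE exon lengths. A prior count of 0.125 entered the log2 fold changes, and each SE is the fold change over the square root of F. The pipeline was run on simulated counts with few genes changed, which did not cover scaling where many genes change. Intervals and floors cover counting error or the spread between these libraries only.

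Named genes were all members; from each list up to 4 called genes with the smallest adjusted p in ERKi against DMSO and up to 2 more in Comb against ERKi; DUSP6, SPRY4 and ETV4; FCGR2B and FCGR2C; and the 2 protein-coding genes (mean CPM of at least 5) nearest to each member that was called against DMSO. TLR6, LY96, SCARA3, ADGRE1, TREM1, TREM2, ADAMDEC1, CD80, COL1A2, SPI1, NPM1, CTSG, CD163L1 and VCAN-AS1 were added after their values were seen. Sharing of reads was judged from 50-base windows of GENCODE transcripts, and promoters came from RefSeq. Alternatives were RLE factors, DESeq2 1.42.0, limma-voom (limma 3.58.1), no filter, a replicate block, CPM of at least 1 in 3 libraries, fits of the compared libraries alone, leaving out each library in turn, and, chosen after seeing the data, scaling by total counts. Protein sequences were not used here.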

Additional observations from a re-analysis of the deposited data

Results flagged for a closer look

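For 6 genes the effect of venetoclax differed with and without the ERK inhibitor, by edgeR's test of the interaction itself on the log2 scale. The interaction was -0.96 for CD36, -1.69 for CD86, -0.43 for FCGR2A, -1.04 for CD163, -1.47 for SCARA5 and -1.15 for ADAM28. The SCARA5 call was lost without ABT199 replicate 1 or ABT199 replicate 3 and by limma-voom. In 3 of 3 Comb libraries each of the 6 was below every ERKi library. Between ABT199 and DMSO none of the 6 was called, and for 5 of them the libraries of the 2 groups overlapped, CD86 being the exception.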

How the results depend on the processing

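Of 278 counts of members called under an alternative, 264 stayed within 1.5 times the value reported. Members lower in ABT199 against DMSO numbered 1 (CD86) with total-count scaling, DESeq2 or no filter, and 0 to 1 with a library left out. Members lower in ERKi against DMSO numbered 1, without CD14, with DESeq2, limma-voom, a filter of CPM 1 in 3 libraries (which removes CD14) or only the libraries compared, and 1 to 2 with a library left out. Members lower in ERKi against ABT199 numbered 1 to 2 with a library left out. For the other calls that moved, the cause was not tested. Of 1238 values of members under an alternative, 1192 kept direction and call, 19 lost and 10 gained a call, and 17 changed sign, all of members not called in that comparison. CD14 in Comb against ERKi was -0.109 with total-count scaling and -0.002 with the replicate block, CD33 there was 0.01 with no filter, and the CD33 interaction was -0.044 with total-count scaling. With a library left out, CD14 ranged from -0.095 to 0.158 in Comb against ERKi and from -0.188 to 0.572 in the interaction, and CD33 from -0.028 to 0.12 in the interaction. In ABT199 against DMSO, the ranges were -0.558 to 0.202 for CD14, -0.139 to 0.009 for CD33, -0.132 to 0.049 for VCAN and -0.046 to 0.169 for CD163. Replicate numbers did not pair the libraries: 1 of 18 correlations of same-numbered libraries exceeded 0.1 (range -0.132 to 0.11), and 4 of 12 libraries were closest to their own number. With the replicate block 1 gene was higher and 47 lower in ABT199 against DMSO, where the fit without it gave 3 and 58, and no call of a member changed. Low counts limit CD14, CD163 and MSR1, and 3 libraries a group limit all.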
